A study of Mus musculus with 6 samples.

Results

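Hspb1, Hspb8 and Bag3 encode a small group of chaperones, the small heat shock proteins Hspb1 and Hspb8 and the co-chaperone Bag3, and they are 3 of the 18572 genes tested here. They were chosen by name, with earlier results of these data known. For each, the brightest transcript cluster (the set of probes that gives 1 value on the array) with 1 gene symbol in the platform annotation was taken. Each gene had 1 such cluster. Total RNA came from NIT-1 cells, an established line of mouse pancreatic beta cells, plated for 24 h and then kept for another 24 h either in serum-containing medium alone or with 4 µmol/L cadmium sulphate (CdSO4) added. Both groups had 3 arrays, which the labels call biological replicates, and the series describes the cadmium dose as one that induces oxidative damage. All samples come from this 1 cell line, so no other beta cell is represented, and the labels do not say whether the replicates came from separate passages or days. P-values therefore measure the spread between these cultures.

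Small heat shock proteins hold unfolding proteins in a soluble state without using ATP, and Hspb1, also called Hsp25 in the mouse, additionally binds actin filaments. Bag3 binds Hsp70 through its BAG domain and small heat shock proteins, above all Hspb8, through short motifs elsewhere in the protein, and so joins client recognition to Hsp70. The assembled complex, with a ubiquitin ligase and an autophagy receptor, passes damaged proteins to autophagosomes, a route named chaperone-assisted selective autophagy. Genes of this kind are known targets of the heat shock factor Hsf1, which binds repeated units of the letters GAA and their complement TTC in alternating orientation.

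The sequences around the starts of the 3 genes are shown because each holds a pair of such units facing each other. The windows are RefSeq promoters of mouse assembly GRCm38.p6, 250 bases before to 50 bases after the start, and capitals mark the matches. Hspb1 lies on the forward strand of chromosome 5 (gene span chr5:135887919-135889563), Hspb8 on the reverse strand of the same chromosome (chr5:116408491-116422864) and Bag3 on the forward strand of chromosome 7 (chr7:128523583-128546981). All are protein coding. The 250 bases before the start of Hspb1, chr5:135887669-135887918, hold 2 matches to GAANNTTC.
Hspb1: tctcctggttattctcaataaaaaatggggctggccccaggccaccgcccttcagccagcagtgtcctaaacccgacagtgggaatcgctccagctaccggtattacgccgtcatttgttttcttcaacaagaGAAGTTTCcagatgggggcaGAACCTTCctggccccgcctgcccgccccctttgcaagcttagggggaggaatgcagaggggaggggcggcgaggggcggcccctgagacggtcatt
To compare the 3 genes, the 30 bases around a match are given 5′ to 3′ on the strand of each gene, for Hspb1 at chr5:135887791-135887820, for Hspb8 at chr5:116422844-116422873 and for Bag3 at chr7:128523603-128523632.
Hspb1: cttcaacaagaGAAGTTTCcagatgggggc
Hspb8: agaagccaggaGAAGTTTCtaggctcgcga
Bag3: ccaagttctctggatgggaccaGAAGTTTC
The match has the same 8 letters, GAAGTTTC, in all 3 windows, which was noticed after the matches were listed.

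The match lay at bases -117 to -110 from the start in Hspb1, at 3 to 10 in Hspb8 and at 43 to 50 in Bag3, so in Hspb8 and Bag3 it falls just inside the annotated transcript. The second match of Hspb1 was at -97 to -90. A match to GAANNTTC, which reads the same on both strands, was present in 7.86% of 32851 RefSeq windows of this length, and the letters GAAGTTTC, on either strand, in 1.21%. The reverse arrangement TTCNNGAA, present in 8.52% of windows, was in none of the 3, nor was a run of 3 alternating units, a match of either kind extended by another unit, which 0.603% of windows hold. The Bag3 match ends at the last base of its window, so units that follow it could not be seen. The cores TGCACNC or TGCGCNC, to which the metal-responsive factor Mtf1 binds, occurred in 25.7% of windows and in none of these 3, on either strand. The antioxidant core TGACNNNGC, in 12.4% of windows, was likewise not found. Bag3 held a match to TGANTCA, the core bound by AP-1 factors and present in 7.81% of windows, at -20 to -14, shown here at chr7:128523552-128523581.
Bag3: attatagcctaTGACTCAgggcggagctcc
A match is a description of the letters in the window, and binding was not measured.

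**Figure D1:**
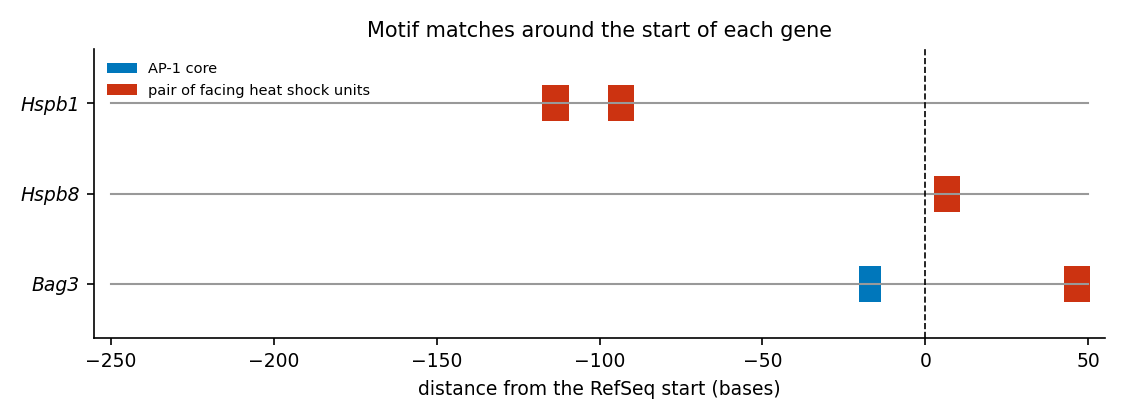
Motif matches along the RefSeq window of Hspb1, Hspb8 and Bag3, with distance from the annotated start in bases on the horizontal axis (dashed line, the start) and 1 gene per line. Hspb1 has 2 pairs of facing heat shock units before the start, Hspb8 and Bag3 have 1 each after it, and Bag3 has an AP-1 core at -20 to -14.

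On the second principal component of all genes, which held 15.6% of the variance, control replicate 3 and cadmium replicate 1 lay at 12.3 and 11.5 and the other 4 arrays between -6.28 and -5.48, so values with each of these 2 arrays left out in turn are given further on. All 3 genes rose with cadmium. Hspb1 had 6.60, 6.36 and 6.25 log2 units of signal on control replicates 1, 2 and 3, and 7.90, 8.69 and 8.65 on cadmium replicates 1, 2 and 3. Every cadmium array was above every control array, by at least 1.30, and cadmium replicate 1 was the lowest of its group. The means were 6.40 ± 0.18 and 8.41 ± 0.44 (SD, n = 3), a change of 2.01 ± 0.21 (SE) on the log2 scale or 4.03-fold (limma adjusted p = 0.0019). The 95% interval of the change ran from 1.51 to 2.51. Hspb1 was the only one of the 3 genes above background on all 6 arrays, where background is the level that 95% of the array's 5222 negative control probes do not exceed, 6.12 to 6.25. Only 2430 of the 18572 genes had a group mean above the average of these levels, so below background does not mean absent. In bulk RNA, more cells of a type and more RNA per cell cannot be told apart.

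Hspb8, the partner of Bag3 among the small heat shock proteins, had 5.90, 5.77 and 6.26 on the control arrays and 7.05, 7.54 and 7.43 on the cadmium arrays. The groups were separated by 0.79, cadmium replicate 1 was again the lowest of its group, and control replicate 3 the highest of the controls. The means were 5.98 ± 0.25 and 7.34 ± 0.26 (SD, n = 3), a change of 1.37 ± 0.16 (SE), with a 95% interval of 0.98 to 1.75 (limma adjusted p = 0.0028). Only 1 of its 3 control arrays was above background. With control arrays set to no less than their own background the rise was at least 2.17-fold, against 2.58-fold as measured.

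Bag3 had 5.53, 5.62 and 5.46 on the control arrays and 6.70, 6.92 and 7.30 on the cadmium arrays. The lowest cadmium value exceeded the highest control value by 1.08, and cadmium replicate 1 was once more the lowest of its group. The means were 5.54 ± 0.08 and 6.97 ± 0.30 (SD, n = 3), a change of 1.44 ± 0.14 (SE), with a 95% interval of 1.10 to 1.77 (limma adjusted p = 0.0017). All 3 control arrays lay below background, so the rise is given as at least 1.73-fold. Bag3 control signals still exceeded 90.9% to 91.8% of the negative control probes. The 3 members were thus all among the genes higher at the adjusted threshold of 0.05, to which 6.45% of all genes tested belonged, and all among the 22.8% of genes whose cadmium arrays all lay above the control arrays. As the 3 were chosen with earlier results of these data known, such shares describe their place and test nothing.

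**Figure D2:**
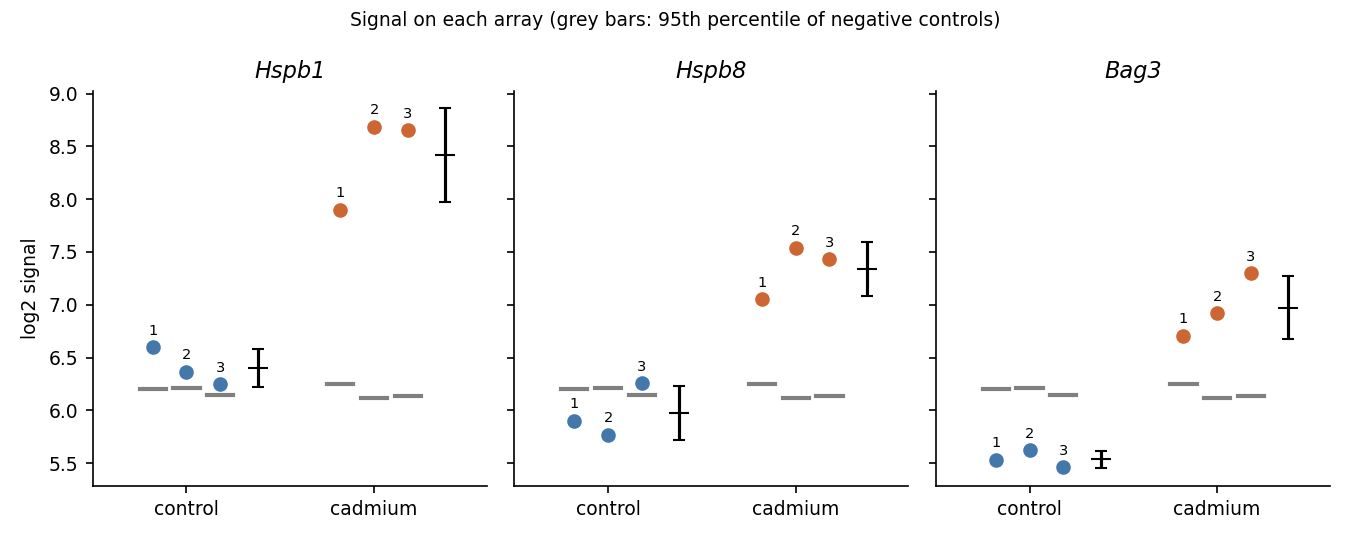
Log2 signal of Hspb1, Hspb8 and Bag3 on each array (points, numbered by replicate), with the group mean and SD (black bars, n = 3) and the background level of that array (grey bars, 95th percentile of its negative controls). All cadmium points lie above all control points, and the control points of Bag3 lie below background.

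A rise of at least 1 on the log2 scale past the threshold was seen in 0.883% of all genes, and the median change over all genes was 0.04. That 0.883% includes many predicted genes, some with the same change, which may not all be separate signals. With each array centred on its median, which moves the share of higher among called genes from 52.6% to 35.3%, the changes were 1.96, 1.32 and 1.39 for Hspb1, Hspb8 and Bag3. They stayed past the threshold under each of the 15 alternatives run, with adjusted p of 0.0004 to 0.0136 for Hspb1, 0.0005 to 0.0184 for Hspb8 and 0.0005 to 0.0116 for Bag3.

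**Figure D3:**
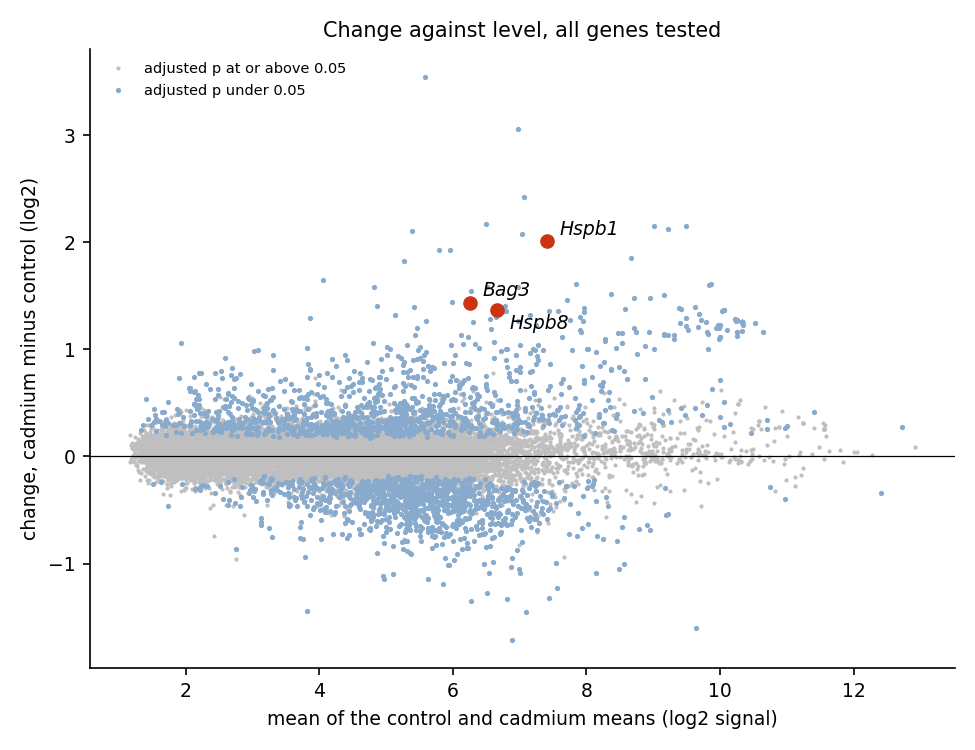
Change with cadmium (cadmium minus control, log2) of each of the 18572 genes against its mean level (mean of both group means, log2 signal), with genes past an adjusted p of 0.05 in blue and the 3 chaperone genes in red. Hspb1, at 2.01, Bag3, at 1.44, and Hspb8, at 1.37, are among the 0.883% of genes with a rise of at least 1 past the threshold.

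The sizes of the 3 changes were compared within arrays, as the difference between both genes on the same array, which removes any offset of the array. The change of Hspb1 exceeded that of Hspb8 by 0.65 ± 0.25 (SE), with a 95% interval of -0.04 to 1.34, and that of Bag3 by 0.58 ± 0.20 (SE), with an interval of 0.02 to 1.13. In both cases the two-sided exact permutation p was 0.1, the smallest that 3 arrays against 3 allow, and 0.15 after Benjamini-Hochberg adjustment over the 3 pairs, so neither difference could pass. The changes of Hspb8 and Bag3 differed by -0.07 ± 0.24 (SE), with an interval of -0.73 to 0.59 (exact permutation p = 0.7, adjusted 0.7). The interval does not show that they changed alike. Since 2 of the 3 Hspb8 and all 3 Bag3 control arrays were below background, their changes may be compressed relative to that of Hspb1. The control arrays of Hspb1 were themselves little above background, at 6.60, 6.36 and 6.25 against levels of 6.20, 6.21 and 6.14. Its change may thus be compressed too.

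The 3 genes shared the order of the cadmium arrays in part. Relative to its control mean Hspb1 stood at 1.50 on cadmium replicate 1, against 2.29 and 2.25 on replicates 2 and 3. The corresponding values were 1.08, 1.57 and 1.46 for Hspb8 and 1.17, 1.38 and 1.76 for Bag3. Cadmium replicate 1 was also the lowest cadmium array for 8 of 8 other heat shock genes measured, for 56.1% of all genes that rose and for 36.4% of all genes. Among the 148 genes that rose by at least 1 and were above background with cadmium the share was 91.9%. Many of the largest rises were of predicted genes, some with the same change, such as Gm24641 and Gm25484 at 1.37. The share may therefore count some signals several times. Without that array the changes were 2.27 for Hspb1, 1.51 for Hspb8 and 1.57 for Bag3, and without control replicate 3 they were 1.93, 1.51 and 1.40.

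**Figure D4:**
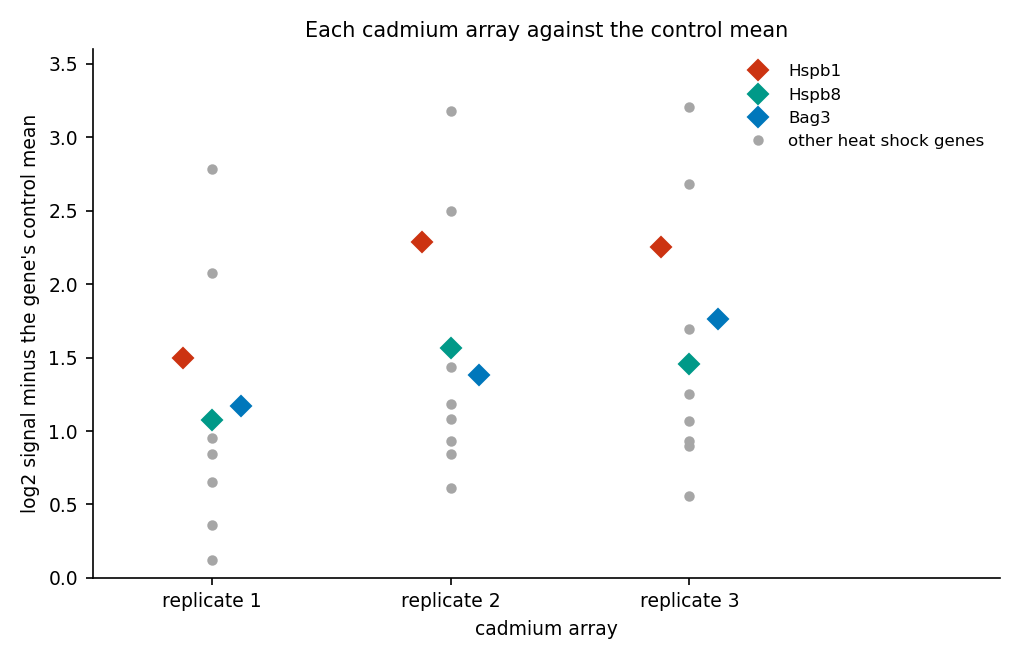
Log2 signal on each cadmium array minus the gene's control mean (vertical axis) for Hspb1, Hspb8 and Bag3 (diamonds) and 8 other heat shock genes (grey points), by cadmium replicate. Replicate 1 is the lowest for each of the 11 genes, with Hspb1 at 1.50 there against 2.29 and 2.25.

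Of the small heat shock protein family 6 of 10 genes were measured under a single name, and 3 of them rose, Hspb1, Hspb8 and Cryab. Without Hspb1 and Hspb8 that is 1 of 4, beside 6.45% of all genes called as higher. Cryab, αB-crystallin, a chaperone of lens and muscle that also responds to stress, rose from 5.98 ± 0.14 to 6.63 ± 0.09 (SD, n = 3), by 0.65 ± 0.08 (SE) or at least 1.36-fold (limma adjusted p = 0.0039). Its control arrays read 5.98, 5.84 and 6.12, and its cadmium arrays 6.55, 6.73 and 6.62, without overlap, as for 22.8% of all genes with cadmium higher. The call of Cryab held with each array left out. It was lost in the limma test against a minimum change of 1.2-fold (adjusted p = 0.051). Hspb6, Hspb2 and Hspb7, members best known from heart and skeletal muscle, did not pass and were below background in both groups. Hspb6 was at 5.91 ± 0.01 and 5.95 ± 0.08, Hspb2 at 5.45 ± 0.11 and 5.41 ± 0.12, and Hspb7 at 4.53 ± 0.10 and 4.50 ± 0.18 (SD, n = 3). Apart from Hspb1 and Hspb8 the median change of the family was 0.003 over 4 genes, beside 0.04 over all genes. Cryab and Hspb2 are neighbours on chromosome 9 whose RefSeq spans overlap by 1283 bases. The sources used here do not say whether the probes tell the strands apart.

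The BAG family of Hsp70 cofactors had 4 of 6 genes measured, of which Bag3 and Bag1 rose. Without Bag3 that is 1 of 3, beside 6.45% of all genes called as higher. Bag1, a nucleotide exchange factor of Hsp70 linked to the proteasome, read 5.82, 6.04 and 6.16 on the control and 6.33, 6.43 and 6.34 on the cadmium arrays. Its change was 0.36 ± 0.09 (SE), at least 1.13-fold (limma adjusted p = 0.0425), beside 1.44 for Bag3. The call of Bag1 was lost with arrays centred on their medians (adjusted p = 0.074) and when any array other than control replicate 3 was left out, at adjusted p of 0.071 to 0.133. Bag2, which inhibits the ubiquitin ligase of Hsp70, was at 5.11 ± 0.13 and 5.25 ± 0.13, and Bag4 at 4.60 ± 0.14 and 4.48 ± 0.04 (SD, n = 3), and neither passed. Without Bag3 the median change of the family was 0.14.

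Among genes of chaperone-assisted selective autophagy and other partners of Bag3, 11 of 16 were measured, 3 of them rose and 1 fell, with a median change of 0.04. That is 4 called of 11, where 12.3% of all genes were called, 6.45% as higher and 5.8% as lower. Flnc, filamin C, an actin crosslinker and a client of this route in muscle, had 6.71, 6.64 and 6.77 on the control and 6.96, 7.40 and 7.31 on the cadmium arrays, 1.43-fold higher with cadmium (change 0.51 ± 0.11 (SE), limma adjusted p = 0.0295). The groups did not overlap, as for 22.8% of all genes with cadmium higher, and cadmium replicate 1 was again the lowest of its group. Flna, the widely expressed filamin, was at 8.25 ± 0.10 and 8.10 ± 0.11 (SD, n = 3) and did not pass. Ywhag, a 14-3-3 protein that links Bag3 to dynein transport, rose from 5.63 ± 0.05 to 6.03 ± 0.17 (limma adjusted p = 0.0297), and Lats1, a kinase of the Hippo pathway, fell from 4.50 ± 0.14 to 4.16 ± 0.06 (limma adjusted p = 0.0325), both below background in both groups. The cluster named Hspa8, the constitutive Hsp70, read 12.59 ± 0.02 and 12.87 ± 0.09 (SD, n = 3), a change of 0.28 ± 0.06 (SE) (limma adjusted p = 0.0273). Hspa8 is uncertain, because the cluster that stands for it carries chromosome 6 in its identifier while RefSeq places the gene on chromosome 9, and after quantile normalization its change was 0.03 (adjusted p = 0.797).

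None of these 4 calls held when each array was left out in turn. Flnc and Hspa8 passed only without cadmium replicate 1, with adjusted p of 0.052 to 0.104 and 0.052 to 0.099 without each other array. Lats1 passed only without control replicate 3, with adjusted p of 0.051 to 0.111 without each other array. Ywhag lost its call without any of control replicates 1, 2 and 3, at 0.098, 0.072 and 0.069. Other members of the list did not pass, among them Dnajb6, a J-domain co-chaperone, at 6.42 ± 0.05 and 6.32 ± 0.07 (SD, n = 3). Hspa1a, Hspa1b, Stub1 and Sqstm1 are among the genes not analysed here.

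Of 17 autophagosome proteins and ubiquitin receptors 10 were measured, 1 rose and 1 fell, beside 6.45% and 5.8% of all genes, and the median change was 0.13. Of these 10 genes, 7 had an unadjusted p under 0.05. The share of all genes under that unadjusted threshold is not given here. This count, like those at the same threshold for other lists, is therefore not read as a result about the list. Gabarapl1, which is attached to autophagosome membranes and binds cargo receptors, read 5.29, 5.13 and 5.38 on the control and 6.12, 6.07 and 6.00 on the cadmium arrays, a change of 0.80 ± 0.07 (SE) (limma adjusted p = 0.0015). Unlike the 3 chaperone genes, its cadmium replicate 1 was the highest of the group. Both group means were below background, so no fold is given. Ulk1, the kinase that starts autophagosome formation, fell from 6.49 ± 0.05 to 5.91 ± 0.16 (SD, n = 3, limma adjusted p = 0.0066). All 3 cadmium arrays were below background, so the level is given as at least 1.26-fold lower. The calls of Gabarapl1 and Ulk1 held with each array left out. The LC3 gene Map1lc3b was at 5.63 ± 0.06 and 5.79 ± 0.08 and Gabarapl2 at 5.79 ± 0.04 and 5.93 ± 0.05 (SD, n = 3), and neither passed.

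Of the heat shock factors and their regulators 4 of 8 genes were measured and 1 was called, as lower, as were 5.8% of all genes. Hsf2, a second heat shock factor, fell from 5.09 ± 0.04 to 4.79 ± 0.06 (SD, n = 3), by 0.30 on the log2 scale (limma adjusted p = 0.0129), below background in both groups. Leaving out control replicate 1 or cadmium replicate 2 ended its call (adjusted p = 0.057 and 0.056). Hsbp1, a small protein that binds Hsf1, was at 6.87 ± 0.09 and 7.01 ± 0.10, and Hsf4, the lens factor, at 5.58 ± 0.06 and 5.66 ± 0.05 (SD, n = 3), and neither passed. Hsf1 is not analysed here.

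Hspb1 protein is phosphorylated by kinases of the p38 and MK2 route, of which 2 of 10 genes were measured. Mapkapk2, encoding MK2, was at 7.20 ± 0.21 and 7.24 ± 0.09 and Mapkapk3 at 4.26 ± 0.02 and 4.33 ± 0.05 (SD, n = 3). By limma 0 of 2 passed, where 12.3% of all genes were called, and 0 had an unadjusted p under 0.05. With so few genes measured these counts are not read as a result about the route. Arrays of RNA do not show phosphorylation. Of the actin and intermediate filament genes 3 of 7 were measured, and by limma 0 passed, beside 12.3% of all genes, with 1 at an unadjusted p under 0.05. Actb was at 9.27 ± 0.07 and 9.44 ± 0.15, Vim, vimentin, at 4.13 ± 0.02 and 4.28 ± 0.04 and Des, desmin, at 4.08 ± 0.03 and 4.14 ± 0.03 (SD, n = 3).

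**Figure D5:**
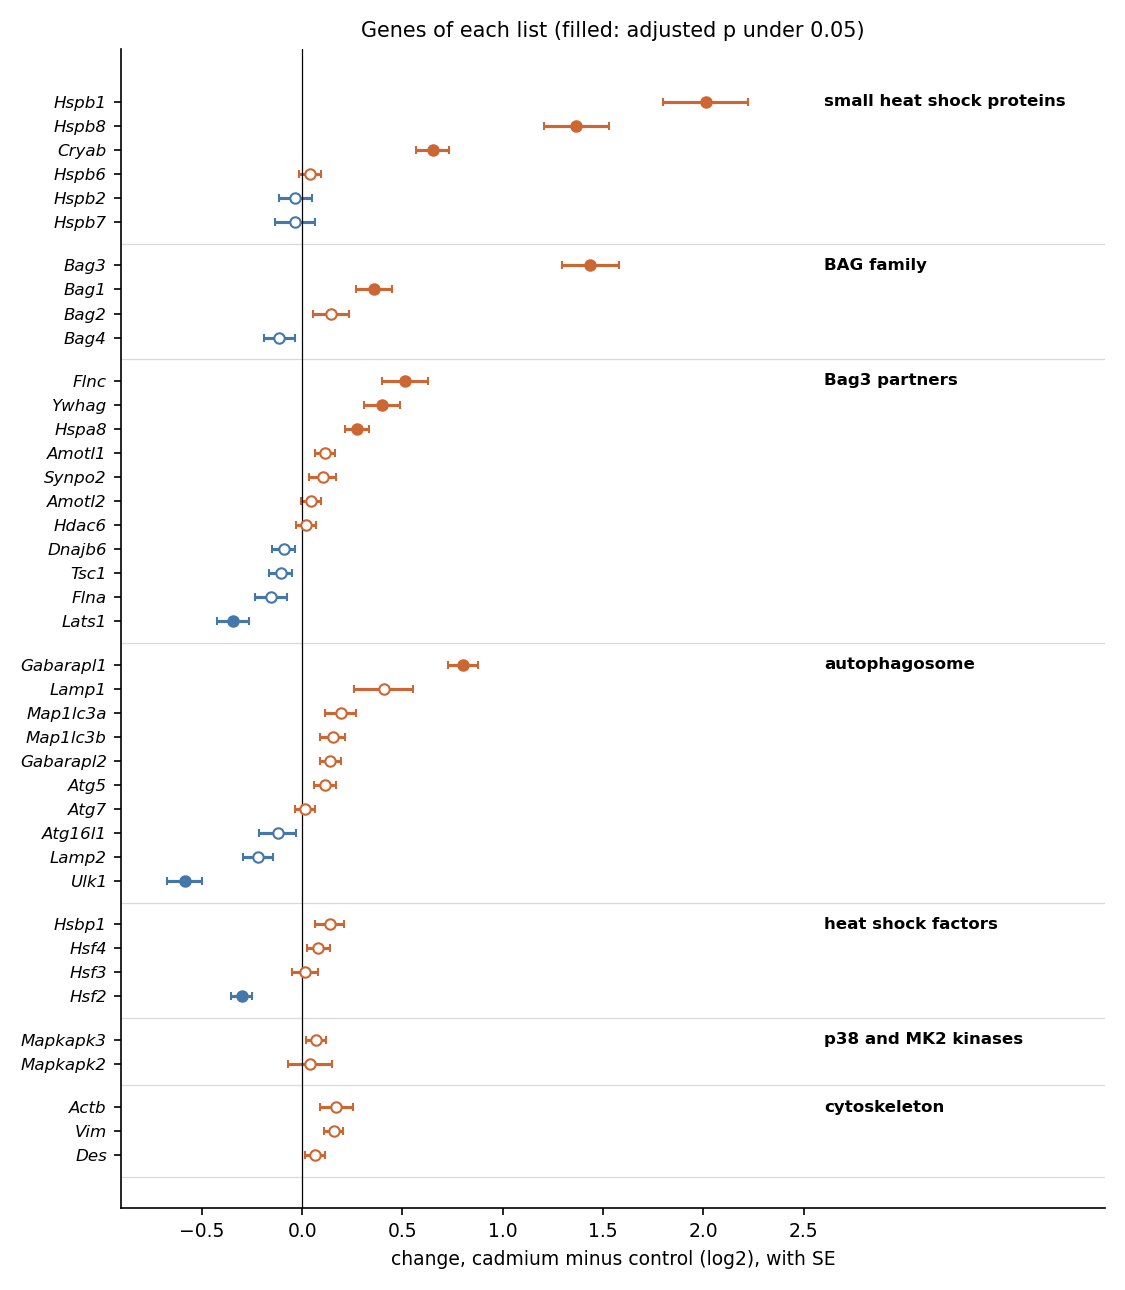
Change with cadmium (cadmium minus control, log2, with SE) of each measured gene of the pathway lists other than the other heat shock response genes, filled where the limma adjusted p was under 0.05. Hspb1 at 2.01, Bag3 at 1.44 and Hspb8 at 1.37 have the largest values plotted among these lists, followed by Gabarapl1 at 0.80 and Cryab at 0.65.

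The genes whose profile over the 6 arrays was nearest to each member were found by the root mean square difference in log2 units. The control mean of each gene was subtracted first, and 10337 named genes were compared, without predicted genes, small RNAs and receptors of smell. Because only the control mean was subtracted, the size of the change weighs heavily. A near gene need not share the order of the cadmium arrays. For Bag3 the nearest was Dnajb1, an Hsp70 co-chaperone, at 0.11. Next came Gtf2h1, of transcription factor TFIIH, at 0.22, the demethylase gene Kdm1a at 0.23 and Zfand2a at 0.24, with Hspb8 in place 5. Dnajb1 was also nearest to Hspb8, at 0.18, followed by Cacybp at 0.19, Kdm1a at 0.19 and Zfand2a at 0.22, with Bag3 in place 6 at 0.24. The genes nearest to Hspb1 were Hmox1 at 0.16, Mt2 at 0.28, Akr1b8 at 0.31 and Chordc1 at 0.36. Bag3 stood in place 6 for Hspb1 at 0.45 and Hspb8 in place 8 at 0.52. In the other direction Hspb1 stood in place 31 for Bag3 and in place 59 for Hspb8. Kdm1a, near to Hspb8 and Bag3, read 7.49, 7.43 and 7.41 on cadmium replicates 1, 2 and 3. It was thus highest on replicate 1, where Hspb8 and Bag3 were lowest.

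Of 8 other heat shock response genes measured, 7 rose, beside 6.45% of all genes, and Serpinh1 did not pass. The median change of the 8 was 1.06. Dnajb1 read 6.18, 5.98 and 6.07 on the control and 7.15, 7.51 and 7.77 on the cadmium arrays, a change of 1.40 ± 0.15 (SE), and at least 2.45-fold since the control mean was below background. Hsph1 at 3.06 and Chordc1 at 2.42 changed more than Hspb1, while Hspa4l, the smallest called, changed by 0.70 ± 0.14 (SE) (limma adjusted p = 0.0227). The call of Hspa4l held only without control replicate 3 or cadmium replicate 1, and leaving out each of the other arrays gave an adjusted p of 0.077 to 0.085.

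Across the series array medians were 3.34 to 3.40, on average 3.34 in control and 3.39 in cadmium arrays, and 1198 genes were higher and 1078 lower with cadmium. Of the beta cell markers 7 of 12 were measured and 0 were above background in either group, a level that only 2430 of 18572 genes passed. Ins2 was at 5.27 ± 0.10 and 5.29 ± 0.04 and Pdx1 at 4.25 ± 0.07 and 4.28 ± 0.09 (SD, n = 3). These arrays thus do not bear out the labelled cell type by its markers, though a level below background does not show absence. Of these 7 by limma 0 passed, beside 12.3% of all genes, and 1 had an unadjusted p under 0.05. Of the stromal and muscle markers 6 of 9 were measured, and Col3a1 was the one above background. It fell from 9.07 ± 0.13 to 8.06 ± 0.17 (SD, n = 3, limma adjusted p = 0.0018), and the summed log2 level of the 6 genes ranged from 33.4 to 33.6 over the control arrays and from 32.5 to 33.0 over the cadmium arrays. Its part in the rise of the 3 chaperone genes was not tested. The muscle markers Des, Myog, Ckm and Tnnt2, from a tissue rich in small heat shock proteins and Bag3, were below background in both groups.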

How the data were processed

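The authors deposited 1 log2 value for each transcript cluster on each array, the scale being inferred from the range. The sources used here do not state the base, background correction, normalization, software or probe build, so folds hold only if the base is 2. No scanner files, slides or scan times were used, and columns without a sample numbered 0. Of 39746 clusters 18801 had 1 gene symbol, 1344 several and 19601 none. Symbols were updated through RefSeq (GRCm38.p6), and the brightest cluster stood for each of 18572 genes, 159 of which had several. No level filter was applied. The test was limma (version 3.58.1, R 4.3.3; lmFit, eBayes, group as the only term, Benjamini-Hochberg adjustment over all genes, threshold 0.05), after a test on simulated data. Folds against a group below background set each array of that group to at least its 95th percentile of negative controls, an approximate bound. Pathway genes named are those past the threshold and the 2 brightest of each list, with some others chosen after their values were seen. The 3 members and the 8 lists were chosen with earlier results of these data known. Alternatives covered array centring, quantile normalization, level filters, probe choice, the variance model, weights for arrays, a block for replicate number, leaving out each array and a minimum change of 1.2-fold. Whether same-numbered arrays are paired was checked from their deviations from the group means. Figures were drawn with matplotlib 3.10.9.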

Additional observations from a re-analysis of the deposited data

How the results depend on the processing

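Hspb1, Hspb8 and Bag3 kept their direction and their calls under all 15 alternatives, with changes of 1.88 to 2.27, 1.26 to 1.51 and 1.27 to 1.57, which are also the ranges with 1 array left out. The differences between their changes ranged with 1 array left out from 0.43 to 0.78 for Hspb1 minus Hspb8, from 0.41 to 0.70 for Hspb1 minus Bag3 and from -0.22 to 0.11 for Hspb8 minus Bag3, which thus has no settled sign. Of all genes 2276 were called, 868 among those above background, 1372 with the replicate block, 422 against a minimum change of 1.2-fold, 3358 with array weights and 1134 to 2352 with 1 array left out. Among the counts with 1 array left out the lowest were those without control replicate 1 (1173), control replicate 2 (1141), cadmium replicate 2 (1134) and cadmium replicate 3 (1165). With arrays centred 821 genes were higher and 1502 lower, and after quantile normalization 910 and 1391. The count of the small heat shock protein family fell from 3 to 2 against 1.2-fold, where Cryab lost its call, and stayed at 3 with 1 array left out. For other heat shock response genes the count of 7 was 6 to 8 over the alternatives. The count of the BAG family fell from 2 to 1 with arrays centred, with the replicate block and against 1.2-fold, and was 1 to 2 with 1 array left out. For Bag3 partners the count of 4 became 2 above background, 1 with the replicate block, 0 against 1.2-fold and 0 to 3 with 1 array left out. For heat shock factors the count of 1 became 0 above background and against 1.2-fold, and 0 to 1 with 1 array left out. For autophagosome genes the count of 2 became 1 above background and against 1.2-fold, and 2 to 3 with 1 array left out. For cytoskeletal genes the count of 0 became 1 with genes of at least median level only and 0 to 1 with 1 array left out. Fewer genes were tested under the level filters; for the other settings the cause was not tested. Arrays with the same replicate number correlated at -0.108, 0.053 and -0.111 in their deviations from the group means, and not every array correlated best with its own number. Deviations from means of 3 arrays cannot decide whether same-numbered cultures were handled together, and the labels do not say. With the replicate block Bag1, Flnc, Hspa8 and Lats1 also lost their calls. Below background or little above it, changes may be compressed, which touches Hspb8 and Bag3 and may touch Hspb1.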

Other observations

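The windows of other heat shock genes were searched for the same arrangements of heat shock units as those of Hspb1, Hspb8 and Bag3. Of 8 measured genes, 4 held a facing pair of units, GAANNTTC or TTCNNGAA, which 15.1% of all windows hold. These were Hsph1, Chordc1, Hspd1 and Hspe1, encoding an Hsp110 chaperone, an Hsp90 co-chaperone and the mitochondrial chaperonin with its cofactor, and all 4 also held a run of 3 alternating units, which 0.603% of windows hold. Each of the 4 held GAANNTTC, as the 3 members do. The window of Bag3 ends at its match, so a run continuing past it could not be seen there. Hspd1 and Hspe1 lie on opposite strands of chromosome 1 with overlapping windows and share the same matches, so they are not separate cases. Neither arrangement was found in the windows of Dnajb1, Hspa4l, Cacybp and Serpinh1. The metal-responsive cores, which 25.7% of windows hold, occurred in 5 of the 8 genes and in 0 of the 3 members. Of the 8 genes 3 have 2 windows each, against 1 for each member, and Hspd1 and Hspe1 share a core, so these counts are not over equal sequence. Dnajb1, nearest to Bag3 and Hspb8 by root mean square difference, thus held none of the heat shock arrangements in its windows, which says nothing of sequence outside them.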
